A study of Mus musculus with 5 samples.

Results

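The genes described here are 32 genes of mitosis and the mitotic spindle, chosen by name from the 23420 genes of the deposited expression table. They were measured by RNA sequencing in 5 libraries of CD11b-positive cells, the surface marker of microglia and other myeloid cells, sorted from the forebrain of mice at postnatal day 8. Of the 32 genes, 30 had values that could be tested, while the cyclin gene Ccnb1 and the checkpoint kinase gene Bub1 were listed at 0 in every library. The study set microglia lacking Stat3, a transcription factor activated by cytokine receptors, against microglia that keep it. Stat3 cKO libraries 1, 2 and 3 came from pups that carried the tamoxifen-inducible Cre allele Cx3cr1CreERT2 on one chromosome and Stat3fl/fl on both. Control libraries 1 and 2 came from Stat3fl/fl littermates without the Cre allele. All mice therefore had floxed Stat3. The knockout group also differs from the controls by Cre itself and by the Cx3cr1 copy that carries it. Cx3cr1 is active in microglia, in border macrophages and in some blood monocytes, so the Cre is not limited to one of these cell types. Tamoxifen is described for the Cre-carrying pups as a daily dose on postnatal days 1 to 3, the labels also call all samples untreated, and whether the littermates received it is not given in the sources used here. Each library was a pool of 2 to 4 pups of one genotype and both sexes, so the replicates are separate pools and not single animals.

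Cells enter mitosis when cyclin B and Cdk1 become active together, build a spindle with the help of the Aurora and Polo kinases and of kinesin motors, and attach each chromosome to it through the kinetochore. The spindle checkpoint holds the cell there until every chromosome is attached. The anaphase-promoting complex, an E3 ubiquitin ligase that needs the coactivator Cdc20, then marks cyclin B and the chromosome glue for destruction, and the proteins of the spindle midzone direct the cleavage of the cell. Microglia settle in the brain before birth and multiply there during the first postnatal weeks, and transcripts of this kind come mainly from the cells that are dividing at the moment of collection. In a library made from a pool of cells, a smaller number of dividing cells and less of the RNA in each dividing cell cannot be told apart.

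Mitotic genes are known to share promoter elements. The cell cycle gene homology region, TTTGAA or TTTAAA, is bound by the MuvB complexes that hold these genes off in resting cells and, with B-Myb and Foxm1, switch them on before mitosis. CCAAT is the letter sequence bound by the factor NF-Y. The RefSeq promoter table (build GRCm38.p6, 250 bases before to 50 bases after each start) held 27 of the 32 genes, with 29 promoters. The genes not matched were Ccna2, Aurkb, Kif20a, Tpx2 and Foxm1. Both strands were searched for these letters, and TTTAAA is its own reverse complement. TTTGAA stood in 23 of the 29 promoters (79.3%), against 17.9% of all 32851 promoters in the table. TTTAAA stood in 7 (24.1%, against 13.2%), and one or the other in 26 (89.7%, against 27.6%). CCAAT stood in 23 (79.3%, against 37.4%), and 15 held at least 2 copies of it (51.7%, against 11.7%). Both kinds of letters were found together in 22 of the 29 promoters (75.9%, against 10.7%). These are counts of letters and show no binding in these cells.

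The 120 bases before the start are shown for 8 genes: Mki67, Cdk1 and Plk1 as widely used readouts of dividing cells, Top2a, Cdc20 and Ube2c because their libraries fell in contrasting orders, and Kif23 and Nuf2 because both controls were at the value of 0 reads. They lie at chr7:135716380-135716499 (Mki67, minus strand), chr10:69352913-69353032 (Cdk1, minus), chr7:122159315-122159434 (Plk1, plus), chr11:99024190-99024309 (Top2a, minus), chr4:118437344-118437463 (Cdc20, minus), chr2:164769809-164769928 (Ube2c, plus), chr9:61946800-61946919 (Kif23, minus) and chr1:169531465-169531584 (Nuf2, minus). Each runs 5′ to 3′ on the strand of the gene. Capitals mark TTTGAA or TTTAAA as well as CCAAT, or their reverse complements TTCAAA and ATTGG.
Mki67: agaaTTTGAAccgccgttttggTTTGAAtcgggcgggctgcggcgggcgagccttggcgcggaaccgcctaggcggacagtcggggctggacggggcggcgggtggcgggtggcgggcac
Cdk1: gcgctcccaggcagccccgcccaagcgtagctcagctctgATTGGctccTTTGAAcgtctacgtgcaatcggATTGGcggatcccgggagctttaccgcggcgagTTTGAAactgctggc
Plk1: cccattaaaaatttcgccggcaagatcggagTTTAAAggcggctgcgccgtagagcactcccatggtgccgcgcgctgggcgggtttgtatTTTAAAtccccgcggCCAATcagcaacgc
Top2a: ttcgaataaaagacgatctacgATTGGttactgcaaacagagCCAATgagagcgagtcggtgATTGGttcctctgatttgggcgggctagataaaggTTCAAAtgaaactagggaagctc
Cdc20: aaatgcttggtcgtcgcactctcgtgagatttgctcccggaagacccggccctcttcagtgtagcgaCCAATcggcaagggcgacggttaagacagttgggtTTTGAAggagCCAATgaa
Ube2c: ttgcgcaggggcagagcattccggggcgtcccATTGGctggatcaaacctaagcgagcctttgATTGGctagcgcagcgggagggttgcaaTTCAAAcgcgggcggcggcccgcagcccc
Kif23: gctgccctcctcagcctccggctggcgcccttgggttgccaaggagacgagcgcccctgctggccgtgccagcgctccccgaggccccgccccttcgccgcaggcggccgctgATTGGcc
Nuf2: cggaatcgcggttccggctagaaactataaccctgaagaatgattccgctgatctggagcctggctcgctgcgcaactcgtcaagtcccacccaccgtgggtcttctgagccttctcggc
Within these 120 bases, Mki67 had 2 copies of TTTGAA and no CCAAT, whereas Top2a had a single TTTGAA, read on the other strand, and 3 copies of CCAAT. Cdk1 carried 2 copies of each. Kif23 had only 1 CCAAT here, with a TTTGAA after the start, outside the stretch shown. Nuf2 had none of these letters in the whole window, which says nothing about the factors that act on it. In the whole window Mki67 had 3 copies of CCAAT, Cdk1 also had 3, and Top2a had 2 of TTTGAA and 6 of CCAAT.

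Per the labels, the series holds 286 M reads of 40 bases, of which 274 M aligned to the mouse genome. The depth of each library is unknown. The values are on what was inferred to be a log2 scale, centred gene by gene on a reference that is not given. They therefore compare libraries for one gene and never one gene with another. A gene without reads in a library takes a lowest value there, here called the 0-read value. It was recognised only where at least 2 libraries shared it, so a library alone at it is not counted. Among the 9331 genes tested, control 1 was at that value in 30.9%, control 2 in 22.4% and the knockout libraries in 16.3% to 16.6%. Stat3 (chromosome 11, 100885098 to 100939540, GRCm38) was 0.96, 0.07 and 0.24 in Stat3 cKO 1, 2 and 3 and 0.08 and 0.45 in controls 1 and 2, with a difference of 0.17 ± 0.43 (SE; limma, Benjamini-Hochberg adjusted p = 0.953). It was thus not lower in the libraries labelled knockout, and a value for the whole gene may include exons outside the floxed part, so it does not check the labels. Cx3cr1 was 3.36, 3.34 and 3.00 in the knockout libraries and 4.32 and 3.95 in the controls, so both controls were above every knockout library, with a difference of -0.90 ± 0.39 (SE; limma, adjusted p = 0.639). All 16 microglia markers were above the 0-read value in all 5 libraries, although Tmem119 stood at 1.90 in control 1 against 3.21 to 3.36 elsewhere. Control 1 was lowest in 7 of the 16, among them C1qa, C1qb and C1qc. That is 43.8%, against 20.7% of all tested genes with control 1 alone lowest and 51.6% with ties counted. Control 2 was above control 1 in 14 of the 16 (87.5%, against 48.1%).

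No gene passed in the comparison of 3 knockout with 2 control libraries, and so none of the mitotic genes did (limma, Benjamini-Hochberg adjusted p under 0.05: 0 of 30 tested, against a background of 0.0% of 9331). At an unadjusted p under 0.05 in limma, 3 mitotic genes were higher in the knockout libraries (10.0%, against 5.52% of all tested genes) and 0 were lower (against 2.07%). These were Bub1b, Tpx2 and Kif23. The estimated difference was above 0 for 22 of the 30 genes and below 0 for 8, while 59.8% of all tested genes lay above 0. Among the 22 were Kif23, Nuf2, Ttk, Spc25, Ect2 and Anln, in which both controls were at the 0-read value. These 6 genes were tested only because of reads in the knockout libraries, so their estimates could not fall below 0. The median difference was 0.394 over the 30 genes and 0.133 over all tested genes, a gap of 0.26. When each library was first centred on its own median, the median over all genes moved to -0.117 and that of the mitotic genes to 0.143, which leaves the gap unchanged at 0.26. Leaving out one library at a time moved it: the gap was 0.022 without control 1, 0.139 without Stat3 cKO 1 and 0.216 to 0.317 without each of the other libraries.

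**Figure D1:**
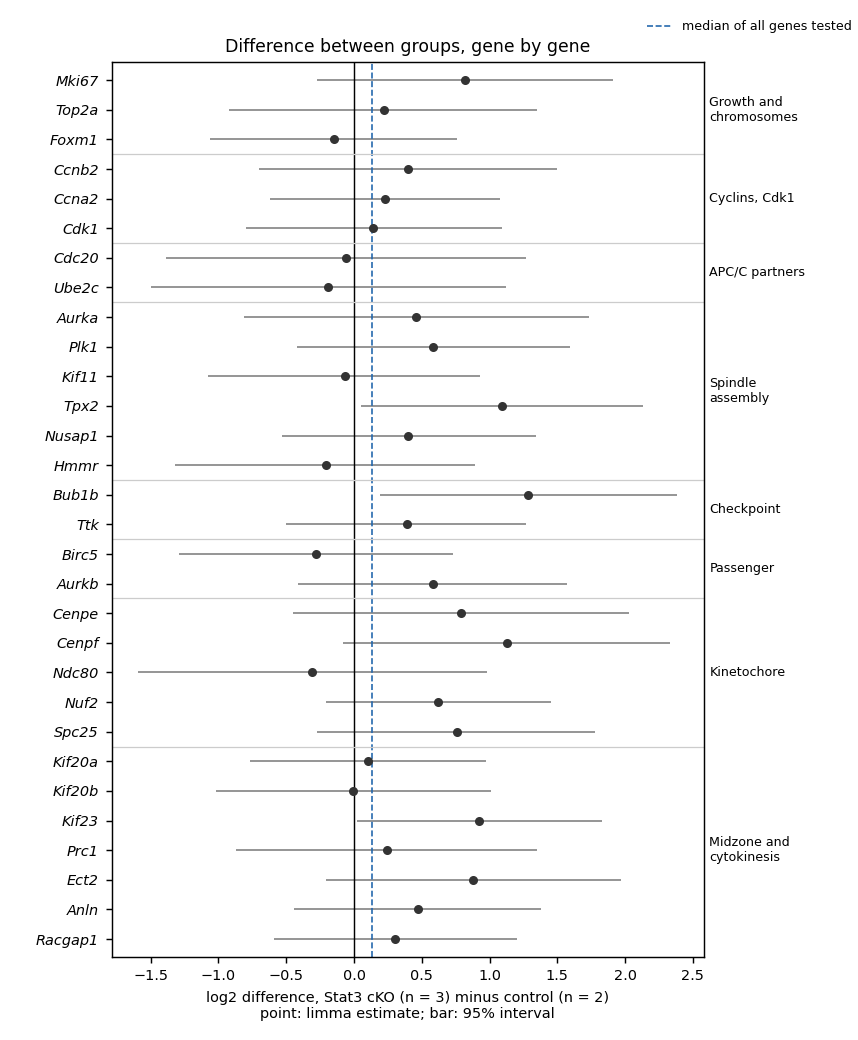
Difference between Stat3 cKO (n = 3) and control libraries (n = 2) for each of the 30 tested mitotic genes, grouped by role, on the log2 scale (horizontal axis). Points are limma estimates, bars are 95% intervals, and the dashed line marks the median of all tested genes at 0.133; 22 points lie above 0, and only the bars of Bub1b, Tpx2 and Kif23 clear it.

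In 4 of the 30 genes (13.3%) every knockout library was above both controls, against 17.3% of all tested genes, and in 0 was every knockout library below both (against 7.12%). These 4 were Bub1b (GRCm38, chr2:118598211-118641591), Tpx2 (chr2:152847964-152895321), Kif23 (chr9:61915905-61946774) and Nuf2 (chr1:169497934-169531464). Libraries with equal numbers of reads for a gene are taken to differ slightly in these values, as they do at the 0-read value. Only Kif23 and Nuf2 kept the knockout libraries above both controls by more than such gaps (background 10.0%), and in both of them the controls were at the 0-read value. The knockout libraries could therefore not fall below the controls in these genes. Both counts were close to the background.

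**Figure D2:**
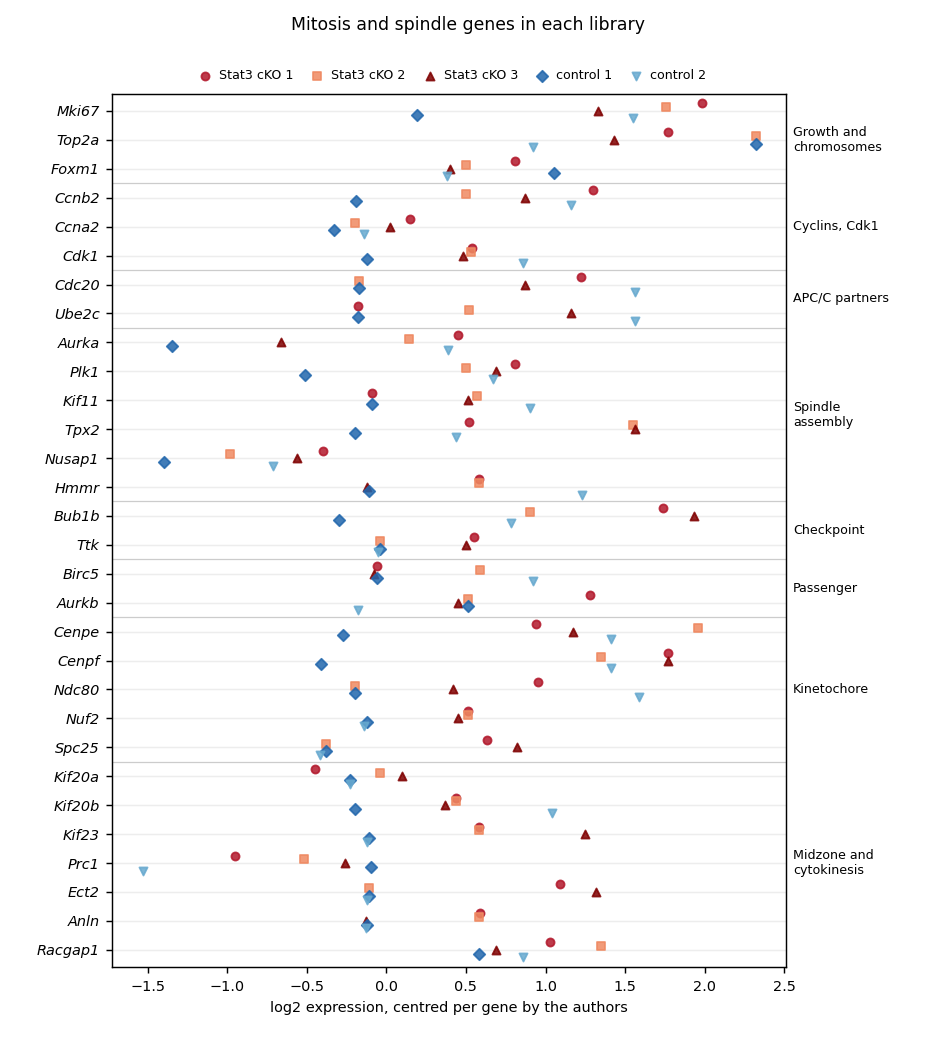
Deposited log2 expression (horizontal axis, taken as centred per gene on a reference not given) of the 30 tested mitotic genes in each of the 5 libraries, grouped by role. Each symbol is one library; the dark blue diamond of control 1 is the lowest or tied lowest symbol in 25 rows, while the light blue triangle of control 2 lies below every knockout symbol in 12 rows, above every one in 8 and among them in 10.

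Mki67, Top2a and Foxm1 are read as general signs of proliferation, and their libraries did not fall in one order. Mki67, which codes for a coat protein of mitotic chromosomes, was 1.98, 1.76 and 1.33 in Stat3 cKO 1, 2 and 3 and 0.19 and 1.55 in controls 1 and 2. Control 2 lay among the knockout libraries, and only control 1 was apart, without which the difference was 0.14. The group means were 1.69 ± 0.33 (SD, n = 3) and 0.87 ± 0.97 (SD, n = 2), with a difference of 0.82 ± 0.49 (SE; limma, adjusted p = 0.756). Top2a, the topoisomerase that untangles sister chromosomes, had the opposite order of controls. It was 1.77, 2.32 and 1.43 in the knockout libraries and 2.32 and 0.92 in the controls, so control 1 shared the highest value and control 2 was the lowest (difference 0.22 ± 0.51 SE; limma, adjusted p = 0.94). Foxm1, a transcription factor that drives mitotic genes, was also highest in control 1, at 1.05 against 0.40 to 0.81 in the knockout libraries and 0.38 in control 2.

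The mitotic cyclins and Cdk1 showed control 1 at the bottom in each of the 3 genes tested. Ccnb2, a B-type cyclin, was 1.30, 0.50 and 0.87 in the knockout libraries and -0.19 and 1.16 in the controls (difference 0.40 ± 0.49 SE; limma, adjusted p = 0.844). Control 2 was within the range of the knockout libraries. Ccna2, the cyclin of S phase and early mitosis, was 0.15, -0.20 and 0.02 against -0.33 and -0.14 (difference 0.23 ± 0.38 SE; limma, adjusted p = 0.899). Cdk1, the kinase these cyclins activate, was almost level in the knockout libraries at 0.48 to 0.54, with control 1 below them at -0.12 and control 2 above them at 0.86. Its estimated difference was 0.14, below 0 once libraries were centred on their medians (-0.106).

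Cdc20 and Ube2c, the coactivator and a ubiquitin-conjugating enzyme of the anaphase-promoting complex, spread widely within both groups. Cdc20 was 1.22, -0.17 and 0.87 in the knockout libraries and -0.17 and 1.56 in the controls, with Stat3 cKO 2 and control 1 at the 0-read value (difference -0.06 ± 0.60 SE; limma, adjusted p = 0.978). Ube2c was -0.18, 0.52 and 1.16 against -0.18 and 1.56, with Stat3 cKO 1 and control 1 at the 0-read value (difference -0.19 ± 0.59 SE; limma, adjusted p = 0.97). For both genes each group held 1 library without recognised reads, and control 2 was the highest of all 5.

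In all, 6 genes act in spindle assembly. Tpx2, which activates Aurora A and seeds microtubules, was 0.52, 1.55 and 1.56 in the knockout libraries and -0.20 and 0.44 in the controls. Knockout libraries averaged 1.21 ± 0.60 (SD, n = 3) and controls 0.12 ± 0.45 (SD, n = 2), a difference of 1.09 with a 95% interval of 0.05 to 2.13 (limma, unadjusted p = 0.0419, adjusted p = 0.639). The lowest knockout library exceeded control 2 by 0.0788, no more than equal read numbers give. Plk1, the Polo kinase of spindle maturation, was 0.81, 0.50 and 0.69 against -0.51 and 0.67 (difference 0.58 ± 0.45 SE; limma, adjusted p = 0.779). Control 2 thus sat amid the knockout libraries, and the difference was -0.005 without control 1. Aurka, the Aurora A kinase itself, ranged from -0.66 to 0.45 in the knockout libraries, with -1.35 in control 1 and 0.39 in control 2. Nusap1, which bundles spindle microtubules, was lowest in control 1 at -1.40, with the other libraries between -0.98 and -0.40. Kif11, the kinesin that pushes the poles apart, and Hmmr, a microtubule-binding spindle protein, were at the 0-read value in control 1 and in 1 knockout library each. Control 2 had the highest value for both, 0.90 for Kif11 and 1.23 for Hmmr.

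Bub1b showed the largest estimated difference of the 30 genes. It codes for BubR1, the checkpoint protein that restrains Cdc20, and was 1.74, 0.90 and 1.93 in the knockout libraries and -0.30 and 0.78 in the controls. On average the knockout libraries stood at 1.52 ± 0.55 (SD, n = 3) and controls at 0.24 ± 0.76 (SD, n = 2), a difference of 1.28 with a 95% interval of 0.19 to 2.38 (limma, unadjusted p = 0.0262, adjusted p = 0.616). Stat3 cKO 2 exceeded control 2 by 0.1143, a gap that equal read numbers give, so the groups met at that point. Ttk, the kinase that starts checkpoint signalling, was 0.55 and 0.50 in Stat3 cKO 1 and 3 and at the 0-read value in Stat3 cKO 2 and in both controls (difference 0.39 ± 0.40 SE; limma, adjusted p = 0.81). Bub1, the partner that brings BubR1 to kinetochores, was listed at 0 in all 5 libraries.

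The 2 genes of the chromosomal passenger complex, which corrects faulty attachments, had estimates of opposite sign, with 95% intervals that both include 0. Aurkb, its kinase, was 1.28, 0.51 and 0.45 in the knockout libraries and 0.51 and -0.18 in the controls (difference 0.58 ± 0.44 SE; limma, adjusted p = 0.779). Control 1 matched Stat3 cKO 2 and 3, and control 2 was lowest. Birc5, which codes for the subunit survivin, was above the 0-read value only in Stat3 cKO 2 at 0.59 and in control 2 at 0.92 (difference -0.28 ± 0.45 SE; limma, adjusted p = 0.896).

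At the kinetochore, control 1 was the lowest or tied lowest library for all 5 genes. Cenpf, a protein of the outer kinetochore, was 1.77, 1.35 and 1.77 in the knockout libraries and -0.41 and 1.41 in the controls. That gives 1.63 ± 0.24 (SD, n = 3) for the knockout group and 0.50 ± 1.29 (SD, n = 2) for the control group, a difference of 1.13 ± 0.54 (SE; limma, adjusted p = 0.675). The controls were farther apart, by 1.82, than the groups, and without control 1 the difference was 0.22. Cenpe, the kinetochore kinesin that carries chromosomes to the spindle equator, behaved alike, with 0.94 to 1.96 in the knockout libraries, -0.27 in control 1 and 1.41 in control 2. Nuf2, Ndc80 and Spc25 code for 3 of the subunits of the Ndc80 complex, which grips microtubules. Nuf2 was 0.51, 0.51 and 0.45 in the knockout libraries and at the 0-read value in both controls, with a difference of 0.62 ± 0.37 (SE; limma, adjusted p = 0.758). Its partner Ndc80 was 0.95, -0.20 and 0.42 against -0.20 and 1.59, highest in control 2. Spc25 was 0.63 and 0.82 in Stat3 cKO 1 and 3 and at the 0-read value in the other 3 libraries. The 3 subunits of one complex therefore did not share an order of libraries. Each had 2 or 3 libraries at the 0-read value, so these orders rest on few libraries with recognised reads and say little about the complex.

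In all, 7 genes act at the spindle midzone and in cytokinesis. Kif23, Ect2 and Anln, like Nuf2, Ttk and Spc25 above, were tested only because of reads in the knockout libraries. The estimates of these genes could not fall below 0. Kif23, the motor of the centralspindlin complex, was 0.58, 0.58 and 1.25 in the knockout libraries and at the 0-read value, -0.11 and -0.12, in the controls. The difference was 0.92 with a 95% interval of 0.02 to 1.83 (limma, unadjusted p = 0.0464, adjusted p = 0.648). Racgap1, the other component of centralspindlin, was 1.03, 1.35 and 0.69 against 0.58 and 0.86, so its groups overlapped (difference 0.30). Ect2, the exchange factor that centralspindlin recruits, was 1.09 and 1.32 in Stat3 cKO 1 and 3 and at the 0-read value in Stat3 cKO 2 and both controls (difference 0.88 ± 0.49 SE; limma, adjusted p = 0.741). Anln, the scaffold protein anillin of the contractile ring, was 0.59 and 0.58 in Stat3 cKO 1 and 2 and at the 0-read value elsewhere. Prc1, which cross-links the midzone microtubules, had the order of Top2a: -0.10 in control 1, -0.95 to -0.26 in the knockout libraries and -1.53 in control 2. The kinesin gene Kif20a was level in the controls at -0.23 and ran from -0.45 to 0.10 in the knockout libraries. Kif20b was 0.37 to 0.44 in the knockout libraries, between -0.20 in control 1 and 1.04 in control 2.

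The controls differed from each other more than the groups did. Control 2 minus control 1 had a median of 0.84 over the 30 genes, against -0.01 over all tested genes, and control 2 was the higher in 19 (63.3%, against 48.1%). In 6 genes both controls were at the 0-read value. Only Top2a, Foxm1, Aurkb, Kif20a and Prc1 were lower in control 2, and for Kif20a the gap was -0.01. Control 1 was the lowest library, or tied with the lowest at the 0-read value, in 25 of the 30 genes (83.3%, against 51.6% of all tested genes). It was alone in last place in 13 (43.3%, against 20.7%) and recognised at the 0-read value in 12 of the 30 (against 30.9%). A library alone at that value could not be recognised, so some of the 13 may be at it too. Control 2 was the lowest or tied lowest in 10 (33.3%, against 35.1%) and was above every knockout library in 8 (26.7%, against 22.4%). It was below every knockout library in 12 (against 41.5%), and both of these figures count ties as below. In Ttk, Spc25, Ect2 and Anln a knockout library was at the 0-read value too. In Bub1b, Tpx2 and Foxm1 control 2 lay below the lowest knockout library by a gap that equal read numbers give. So the mean of the knockout libraries exceeded control 1 in 27 of 30 genes (against 63.9% of all tested genes), with a median of 0.63 (0.31 over all). It exceeded control 2 in 18 of 30 (against 55.3%), with a median of 0.14 (0.11 over all). These comparisons share the 3 knockout libraries.

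**Figure D3:**
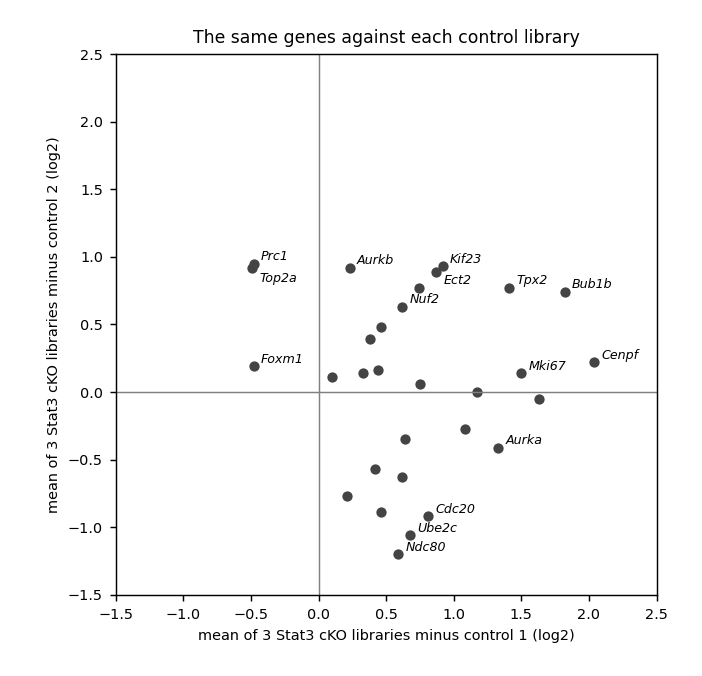
Mean of the 3 Stat3 cKO libraries minus control 1 (horizontal axis) and minus control 2 (vertical axis) for the 30 mitotic genes, in log2 units. Each point is one gene. To the right of 0 lie 27 (against 63.9% of all tested genes), and 18 lie above 0 (against 55.3%). Prc1, Top2a and Foxm1 sit on the left.

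Described one by one, the knockout libraries were closer to each other than the controls were. The median deviation of the 30 genes from their mean over the 5 libraries was 0.26 in Stat3 cKO 1, 0.10 in Stat3 cKO 2 and 0.15 in Stat3 cKO 3, and it was -0.55 in control 1 and 0.03 in control 2. Over all tested genes the same medians were 0.09, 0.06, 0.05, -0.24 and -0.05. Stat3 cKO 1 had the highest value of the 5 in 10 genes, Stat3 cKO 3 in 7 and Stat3 cKO 2 in 2. Stat3 cKO 2 was at the 0-read value for Cdc20, Ttk, Ndc80, Spc25 and Ect2, Stat3 cKO 1 for Birc5, Kif11 and Ube2c, and Stat3 cKO 3 for Birc5, Hmmr and Anln. The knockout libraries spanned a median of 0.68 per gene, and over 1 log2 unit in 9 genes.

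In the other cell cycle lists control 1 again had the lowest median deviation, as it did over all tested genes (-0.24), while the order of the remaining libraries varied. Of 71 further mitotic genes 53 were tested, with 36 estimates above 0 and 17 below (median 0.294). Of 53 genes of DNA replication 42 were tested, with 29 above and 13 below (median 0.389). None passed in either list (limma, 0 called). The median deviation of control 1 was -0.37 for the further mitotic genes and -0.45 for the replication genes. Control 2 minus control 1 had a median of 0.16 for the further mitotic genes and 0.29 for the replication genes, against 0.84 for the 30 genes. The genes with the smallest p among further mitotic genes were Troap, a spindle protein, and Iqgap3, a scaffold protein. Troap was 1.37, 0.57 and 0.94 in the knockout libraries and at -0.14 and -0.15 in the controls, a difference of 1.11 (limma, adjusted p = 0.616). Iqgap3 went the other way, between -0.23 and -0.21 in the knockout libraries with 1.53 and 0.41 in the controls (-1.18; limma, adjusted p = 0.616). For replication they were Rrm1, a subunit of ribonucleotide reductase (1.20; limma, adjusted p = 0.658), and the origin-firing factor Mcm10 (0.79; limma, adjusted p = 0.679). Rrm1 ranged from 0.29 to 2.13 in the knockout libraries, overlapping control 1 at 0.37. For Troap and Mcm10 both controls, and for Iqgap3 every knockout library, had values that fit the 0-read value. Genes of this kind were tested only because of reads in the other group, which fixed the sign of the estimate.

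Genes of the growth phase, brakes on the cycle and regulators of mitotic transcription were read in the same way, with 0 called in each list by limma. Of 14 cyclins and kinases of G1 phase 12 were tested, 6 above 0 and 6 below (median 0.086). Cdk4, the kinase of D cyclins, was 0.98, 1.23 and 1.63 against -0.43 and 0.54 (difference 1.23; limma, adjusted p = 0.616), and E2f1, the activator of S phase genes, was 0.67 to 1.19 against 1.59 and 1.51 (-0.67; limma, adjusted p = 0.75). Of 20 brakes 15 were tested, with 12 above 0 (median 0.439). Among these Ccng1, a p53 target, was 1.15, 0.87 and 0.15 in the knockout libraries and -0.94 and -1.01 in the controls (difference 1.70; limma, unadjusted p = 0.00285, adjusted p = 0.605). Cdkn1a, the cyclin-dependent kinase inhibitor p21, was 1.70 to 2.26 against 1.13 and 0.43 (1.24; limma, adjusted p = 0.616). Of 15 regulators of mitotic transcription 10 were tested, with 6 above 0 (median 0.293). They included Nfyb, a subunit of the CCAAT-binding factor NF-Y, at -0.35 to 0.32 against -0.88 and -0.95 (0.97; limma, adjusted p = 0.639), and E2f4, a repressor E2F, at 0.45 to 0.61 against -1.12 and 0.44 (0.90; limma, adjusted p = 0.735). Of 17 subunits and partners of the anaphase-promoting complex 15 were tested, with 11 above 0 (median 0.251). Its scaffold subunit Anapc1 was 0.49 to 1.11 against -0.53 and -0.57 (1.35; limma, adjusted p = 0.605), and its RING subunit Anapc11 was -0.30 to 0.84 against 1.13 and 0.46 (-0.59; limma, adjusted p = 0.781). The control values of Ccng1, Nfyb and Anapc1 fit the 0-read value. Genes with both controls at it were tested only because of reads in the knockout libraries, and their estimates could not fall below 0.

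**Figure D4:**
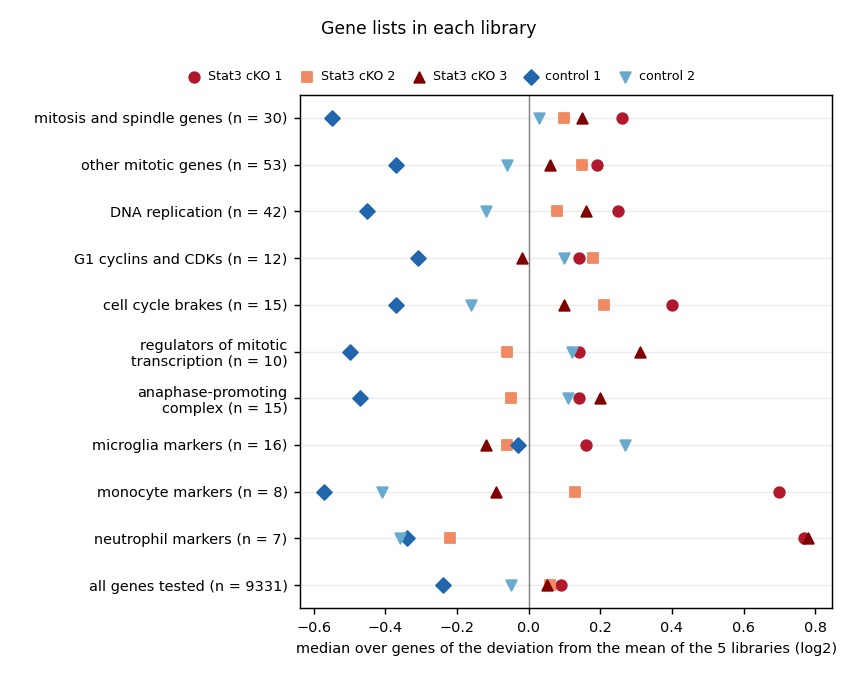
Median deviation of each gene list from the mean of the 5 libraries, in log2 units (horizontal axis), with 1 symbol per library and the number of tested genes in brackets. Control 1 is the lowest symbol in the row of mitotic genes (-0.55) and in each other cell cycle row. Among microglia markers its median lies near 0 (-0.03), but it was the lowest library in 7 of the 16 and below control 2 in 14. Monocyte and neutrophil markers have both controls low. Some of these monocyte and neutrophil markers had both controls at the 0-read value and were tested only because of reads in the knockout libraries.

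Markers of other cells in the CD11b gate moved with the libraries too. Of 11 monocyte markers 8 were tested, with a median difference of 0.657 and median deviations of 0.70, 0.13 and -0.09 in the knockout libraries and -0.57 and -0.41 in the controls. Of 12 neutrophil markers 7 were tested, with a median difference of 0.923 and deviations of 0.77, -0.22 and 0.78 against -0.34 and -0.36. Of 10 border macrophage markers 9 were tested, with a median difference of 0.58 and deviations of 0.14, 0.15 and 0.20 against -0.53 and -0.31. Differences were above 0 for 6 of these 9 and below 0 for 3, the lowest being Folr2 at -0.84. Mrc1 and Folr2 were highest in control 1, at 3.57 and 2.02. Both controls were at the 0-read value for the monocyte markers Ccr2, Plac8 and Treml4. The same held for the neutrophil markers S100a8, S100a9, Mmp8 and Mmp9 and the border macrophage markers Lyve1, Pf4 and Cbr2. These genes were tested only because of reads in the knockout libraries. Their differences, which enter these medians, could not fall below 0. The monocyte gene Ly6c2 and the neutrophil gene Elane were at 0 in all libraries, and 1 of 12 lymphocyte markers could be tested. The 16 microglia markers had a median difference of -0.109. Whether these cells contribute to the mitotic values was not tested.

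Some of these genes share sequence with others. In the GENCODE vM21 annotation 9 of the 32 genes have an exon that overlaps another gene, in 7 of them on the opposite strand: Ccna2 with Exosc9, Cdc20 with Elovl1, Plk1 with Gm44985, Kif20a with Cdc23, Ube2c with Tnnc2, Nusap1 with Oip5 and Prc1 with Rccd1. Top2a and Foxm1 overlap genes on their own strand. No strand setting is given in the sources used here, so values of these 9 genes may include reads of their neighbours. Ccnb1 and Ccnb2 also have a processed pseudogene each, named Ccnb1-ps and Ccnb2-ps, which can take or lend short reads. The value of 0 for Ccnb1 in every library is therefore uncertain.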

How the data were processed

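RNA was sequenced from polyA-selected TruSeq libraries of sorted CD11b-positive forebrain cells, 3 Stat3 cKO and 2 control pools. TopHat2 2.0.13 aligned the reads, and DESeq2 is listed without a role, per the submitters' processing notes and the labels. The read counter is not given in the sources used here, and the deposited table does not name its unit. Its values, which run from -4.12 to 7.69, were taken as log2 values that the authors centred per gene, as a regularized log gives. Such a transform shrinks differences of genes with few reads, so differences here may be understated.

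Of 23420 listed genes, 6974 were 0 in every library, and 27 names had been turned into dates. Another 4464 followed 1 fixed pattern over the libraries, taken as the value of 0 reads and recognised within 2% of its largest span of 0.1157. Where just 2 libraries sit at it, recognition is less sure than with 3 or more. Any 2 values meet that tolerance, so only their level and the size and direction of their gap were checked. Of the 12 mitotic genes with libraries recognised at it, 7 rest on 2 libraries, among them Kif23 and Nuf2. A single library at it could not be recognised. Genes above the 0-read value in at least 2 libraries were tested, which left 9331.

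Groups were compared with limma 3.58.1 in R 4.3.3 on the values as deposited, with Benjamini-Hochberg adjustment over all tested genes and a threshold of 0.05. The test was checked on simulated data. Errors are SD over libraries, or SE and 95% intervals from limma. The p-values measure the spread between pools. All 32 genes were named. From each other cell cycle list the 2 genes with the smallest p were named, and Stat3 and Cx3cr1 as a check of the labels. Members, lists and marker lists were chosen with earlier results of these data known. Other settings tried were no filter, median centring, quantile normalization, limma with trend and robust estimation, the replicate number as a block, and leaving out each library. The count of columns not used was 0. Promoters came from RefSeq (GRCm38.p6), and gene positions from GENCODE vM21 (GRCm38).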

Additional observations from a re-analysis of the deposited data

How the results depend on the processing

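None of the 30 mitotic genes passed under any alternative run. Their smallest adjusted p ran from 0.0621 without the filter on low values to 0.891 with the replicate block (limma). The 0.0621 belonged to Nuf2, with both controls at the 0-read value and the knockout libraries at 0.45 to 0.51. Its estimate could not fall below 0. Over all genes, 1 gene was called lower without the filter (16423 genes tested) and 0 under each other setting. It was Sord, an enzyme of sorbitol metabolism named here after its values were seen (limma, adjusted p = 0.00853). The median difference of the 30 genes stayed above 0 in each alternative, from 0.136 without control 1 to 0.626 without control 2. It was 0.403 over the 18 genes with no library recognised at the 0-read value. A single library at that value could not be recognised, so some of the 18 may still hold one. Relative to all genes the median of the 30 was 0.022 without control 1 and 0.317 without control 2. It was 0.139 without Stat3 cKO 1, and highest at 0.382 without the filter on low values. The count of genes with every knockout library above both controls was 4. It was 2 with median centring, 2 when only gaps larger than equal read numbers give were counted (a setting added after seeing the data), and 5 to 17 with one library left out, where fewer libraries have to be separated.

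Of the 30 estimates, 13 kept their direction under every alternative and 17 turned under at least 1. The 13 include Kif23, Nuf2, Ttk, Spc25, Ect2 and Anln, whose estimates could not fall below 0 on the deposited values. Leaving out one library at a time gave these ranges of the difference: Top2a -0.49 to 0.92, Ccnb2 -0.27 to 1.08, Cdk1 -0.35 to 0.64, Cdc20 -0.92 to 0.81, Birc5 -0.77 to 0.21, Aurka -0.41 to 1.33, Plk1 -0.005 to 1.17, Kif11 -0.57 to 0.42, Kif20a -0.01 to 0.26, Kif20b -0.63 to 0.62, Cenpe -0.05 to 1.63, Ube2c -1.06 to 0.68, Prc1 -0.48 to 0.95, Hmmr -0.89 to 0.46, Foxm1 -0.48 to 0.19, Ndc80 -1.20 to 0.59. Among estimates that did not turn, Cenpf ran from 0.22 to 2.04, Mki67 from 0.14 to 1.5 and Bub1b from 0.74 to 1.82, lowest without control 1 and highest without control 2. Stat3 ran from -0.10 to 0.35. Median centring turned Top2a (-0.035), Ccna2 (-0.02), Cdk1 (-0.106), Kif20a (-0.148), Prc1 (-0.014) and Stat3 (-0.085). Quantile normalization turned Cdk1 (-0.062), Kif20a (-0.117), Prc1 (-0.038) and Stat3 (-0.026). The cause of these turns was not tested.

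The replicate numbers were not shown to pair the pools. Deviations of same-numbered libraries correlated at 0.00221 and -0.067. The fit with the replicate block draws its difference from replicates 1 and 2 alone. It gave a median of 0.417 and 0 calls, and turned Kif20a (-0.011), Kif20b (0.015) and Hmmr (0.02). Relative to all genes, the block gave medians of 0.155 for the G1 genes (-0.047 before), -0.003 for regulators of mitotic transcription (0.16 before) and -0.024 for the anaphase-promoting complex (0.118 before). Leaving out one library gave -0.199 to 0.155, -0.003 to 0.166 and -0.114 to 0.261, and no filter gave 0.074 for the G1 genes.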
